A study of Mus musculus with 4 samples.

Results

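The transcripts described here are those of 10 genes of transforming growth factor β (TGF-β) signaling, the ligand gene Tgfb1, the receptor genes Tgfbr1, Tgfbr2 and Tgfbr3, the SMAD genes Smad2, Smad3, Smad4 and Smad7, and the corepressor genes Ski and Skil. They were chosen by symbol, and their peaks are the distinct rows of the m6A peak list that carry the mouse Ensembl identifier of a listed gene. Of the 10 genes, 9 had a peak (90%), against 46.3% of all protein-coding genes of the annotation. Smad2 had none in the list used here. The 9 genes carried 18 of the 20727 distinct peaks. The genes were picked for their known place in a pathway of immune cells, and which genes are expressed in these cells was not measured here, so the higher share describes this list of genes only.

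N6-methyladenosine (m6A) was mapped by MeRIP-seq (sequencing of methylated RNA after immunoprecipitation), in which fragments of poly(A) RNA are pulled down with an m6A-specific antibody and sequenced beside input fragments that were not pulled down. The cells were splenic natural killer (NK) cells of wild-type (WT) C57BL/6 mice, with 2 immunoprecipitated (IP) and 2 input libraries. All mice had received the pLIVE-IL-15 plasmid to expand NK cells in vivo, and no group of mice without it was analysed here, so the values hold for IL-15-expanded NK cells. The study used young adult mice, and whether a library came from 1 or several of them is not given in the sources used here. Each peak has 1 fold enrichment (IP over input) and 1 peak-calling p-value for all libraries together. There are 0 columns per library, so no error between replicates, no depth and no p-value for a difference between genes can be given, and the comparisons below are descriptions.

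TGF-β is a cytokine that restrains NK cells and other lymphocytes, and it is abundant in many tumors. The ligand binds TGFBR2, a serine/threonine kinase receptor, which recruits and activates the kinase receptor TGFBR1, while TGFBR3 (betaglycan) is a coreceptor that presents ligand. TGFBR1 phosphorylates SMAD2 and SMAD3, which join SMAD4 and act on genes in the nucleus. SMAD7 is an inhibitor that is itself induced by the pathway, and SKI and SKIL (also called SnoN) bind SMAD proteins and hold back transcription. TGF-β was among the cytokines whose effect on the m6A methyltransferase METTL3 was examined in the study.

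m6A is laid down in the DRACH consensus, in which R stands for a purine, D for any base but C and H for any base but G. The sites below are shown because they are candidate m6A positions within the peaks of the ligand, the receptors and their effectors. In each case the site is the GGAC-containing DRACH nearest the center of the peak, or the nearest DRACH where the peak holds no such site. The DRACH letters are in capitals and the flanks of 10 nt in lower case, 5′ to 3′ on the strand of the gene, read from GENCODE M21 transcripts (GRCm38). The assay does not resolve which adenosine is methylated. No sequence is shown for Smad4 and Smad7, for the other 3′ UTR peaks of Tgfbr2 or for the other Ski peak.
Tgfb1 in the 5′ UTR, chr7:25687310-25687334, plus strand: agagacgtggGGACTtcttggcact
Tgfb1 in the coding sequence, chr7:25704250-25704274, plus strand: tttggagcctGGACAcacagtacag
Tgfbr1 in the 3′ UTR, chr4:47414761-47414785, plus strand: agagaagcatAAACTgcatttcccc
Tgfbr2 in the coding sequence, chr9:116092977-116093001, minus strand: gtgtgctgagAGACCgagggcggcc
Tgfbr2 in the distal 3′ UTR, chr9:116085279-116085303, minus strand: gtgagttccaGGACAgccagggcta
Tgfbr3 in the 3′ UTR, chr5:107107633-107107657, minus strand: acattgccaaGGACTttataaataa
Smad3 in the 3′ UTR, chr9:63646970-63646994, minus strand: gggctggtgtGGACTcttgtttagg
Ski in the distal 3′ UTR, chr4:155154181-155154205, minus strand: aaaaaagaggAAACAaagaaaaagc
Skil in the 3′ UTR, chr3:31122135-31122159, plus strand: tctgctggaaGGACTtaccttggta

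The fold enrichments of the 18 peaks ranged from 1.22 at Ski to 106 at Tgfbr2, with a median of 1.99 and an interquartile range from 1.58 to 3.70, beside a median of 2.66 over all peaks. In 9 of the 18 the fold enrichment was under 2 (50%, against 36.1% of all peaks). A peak is called strong here when its fold enrichment is at least 5, the limit set in the study for genes entering its KEGG analysis. There were 4 strong peaks of 18 (22.2%, 95% Wilson interval 9.0 to 45.2), beside 34.6% of all peaks. They belonged to Tgfbr2, Tgfbr3, Smad4 and Smad7, which is 4 of the 9 genes with a peak (44.4%, interval 18.9 to 73.3), beside the 49.6% of all genes with a peak. The p-value was under 0.001 in 13 of the 18 (72.2%, interval 49.1 to 87.5), against 61.5% of all peaks. Every interval here covers counting error only, and for each of these shares the value over the whole list lay inside the interval. The intervals for peaks also take the peaks as independent, although 5 came from Tgfbr2 and 4 from Smad7.

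**Figure D1:**
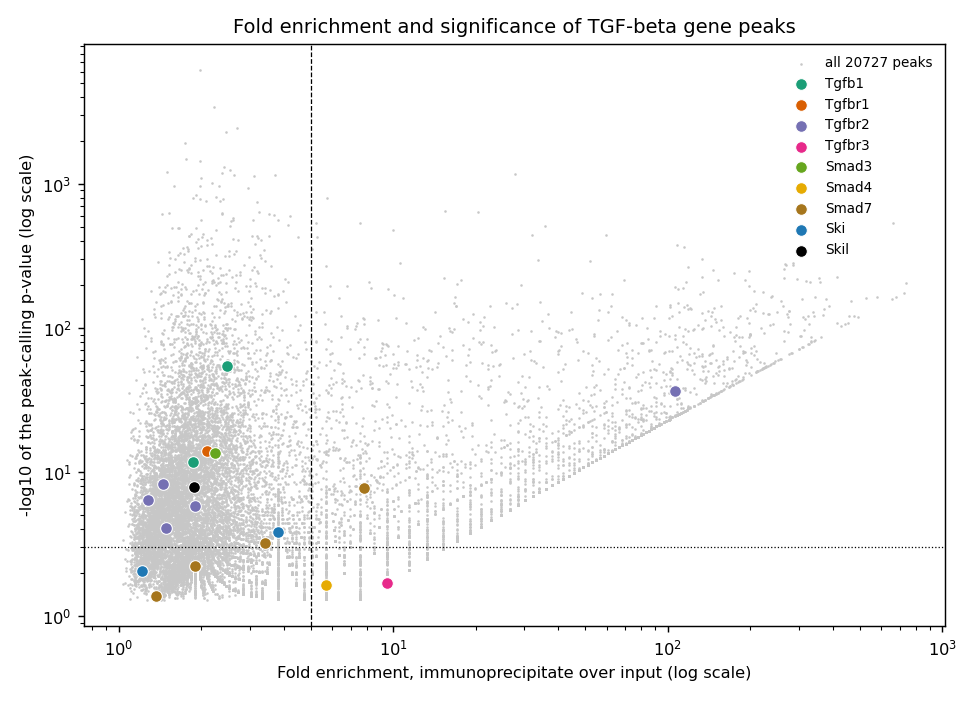
Fold enrichment (x axis, log scale) against -log10 of the peak-calling p-value (y axis, log scale) of each of the 18 TGF-beta gene peaks, colored by gene, over all 20727 peaks in gray. The dashed line marks a fold enrichment of 5 and the dotted line a p-value of 0.001, and 2 of the 4 peaks right of the dashed line, those of Tgfbr2 and Smad7, also lie above the dotted line.

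The ligand transcript carried the most significant peak of the family. Tgfb1 (ENSMUSG00000002603, chromosome 7, plus strand, 25687002 to 25705077) encodes TGF-β1, and its longest coding transcript has 2175 nt in 7 exons, with a 5′ UTR of 867 nt and a 3′ UTR of only 135 nt. The second of its peaks (chr7:25704184-25705077) had a log10 p of -54.7, a value exceeded in significance by 5.17% of all peaks, and a fold enrichment of 2.49. It covered 389 exonic nt in exons 6 and 7, with the last 254 nt of the coding sequence, the stop codon and the whole 3′ UTR. The GGACA printed above for the coding sequence lies 175 nt before the end of the stop codon. The first peak (chr7:25687151-25687330) lay wholly in the 5′ UTR, in exon 1 and 538 nt before the start codon, with an enrichment of 1.87-fold (log10 p -11.7). Both parts of the transcript were rich in G and C, at 62.2% in the 5′ UTR peak and 65.0% in the other.

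Of the 17 peaks that could be placed on the longest coding transcript of their gene, the Tgfb1 peak was the sole one to hold the stop codon (5.88%, against 20.3% of the 15715 placed peaks). It was also the sole peak with its center within 200 nt of the stop codon (5.88%, 95% Wilson interval 1.05 to 27.0), against 22.3% of all placed peaks, a value that lies within the interval. The centers fell in the 3′ UTR in 11 peaks (64.7%, interval 41.3 to 82.7), near the 56.5% of all placed peaks. A further 4 centers fell in the coding sequence (23.5%, against 33.5% of all placed peaks) and 2 in the 5′ UTR (11.8%, against 9.95%).

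**Figure D2:**
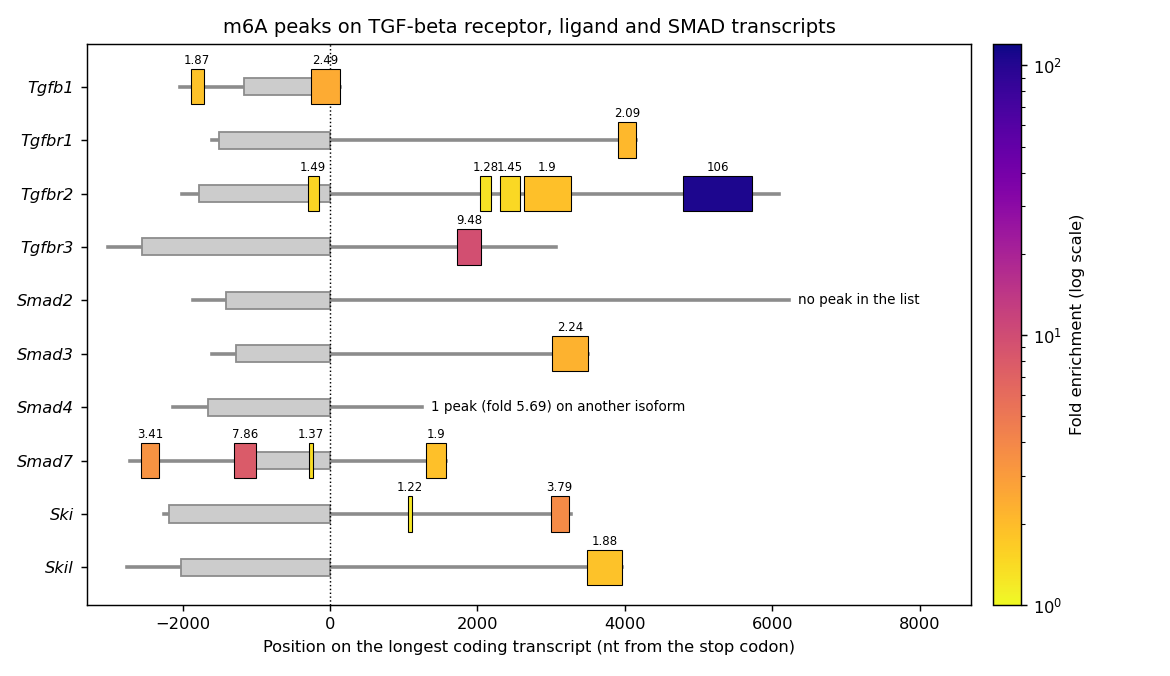
Peaks drawn to scale on the longest coding transcript of each of the 10 genes, with the x axis in nt from the stop codon, the coding sequence as a gray box, the UTRs as gray lines, and each peak as a box colored and labeled by its fold enrichment. The strongest peak lies in the distal 3′ UTR of Tgfbr2, and the last peaks of Tgfb1, Tgfbr1, Smad3, Smad7, Ski and Skil lie at or near the right end of their transcripts.

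The 3 receptor transcripts differed from each other in the number and strength of their peaks. Tgfbr2 (ENSMUSG00000032440, chromosome 9, minus strand, 116084293 to 116175360), which encodes the ligand-binding kinase receptor, had 5 peaks, all with a p-value under 0.001. Together they covered 2133 of 8092 nt of its longest coding transcript (26.4%). The peak farthest downstream (chr9:116084653-116085582) had an enrichment of 106-fold (log10 p -36.6). A higher fold enrichment was found in 1.81% of all peaks and a more significant p-value in 7.84%. It spanned 930 nt of exon 8, from 4796 to 5725 nt past the stop codon and 360 nt short of the end of the transcript, and held 16 DRACH sites.

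The other Tgfbr2 peaks were weak by comparison. A cluster of 3 peaks lay between 2037 and 3266 nt past the stop codon, separated by gaps of 119 and 59 nt. Their fold enrichments were 1.28, 1.45 and 1.90 from 5′ to 3′, and their log10 p-values were -6.42, -8.32 and -5.85. A gap of 1529 nt without a peak set the cluster apart from the strong peak. The remaining peak (chr9:116090530-116093068) joined exons 7 and 8 across an intron, so that 151 of its 2539 nt were exonic. All 151 nt lay in the coding sequence, 152 nt short of the end of the stop codon, with an enrichment of 1.49-fold (log10 p -4.10). Tgfbr2 thus held both the highest value of the family and 3 of its 5 lowest.

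The isoforms of Tgfbr2 separate these peaks. The annotation has 2 coding isoforms, and the shorter one ends 1449 nt past the stop codon. The coding-sequence peak touches both isoforms, whereas the 4 peaks in the 3′ UTR lie beyond the end of the shorter isoform and are held by the longer one alone. The amount of either isoform was not measured.

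Tgfbr1 (ENSMUSG00000007613, chromosome 4, plus strand, 47353222 to 47414931), the kinase receptor that activates SMAD proteins, had a single peak (chr4:47414691-47414931). Its fold enrichment was 2.09 and its log10 p was -14.1. The peak covered the final 241 nt of the 3′ UTR, starting 3914 nt past the stop codon and reaching the last annotated base. It contained 4 DRACH sites and 0 GGAC. Of 4 coding isoforms, 1 extends that far.

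Tgfbr3 (ENSMUSG00000029287, chromosome 5, minus strand, 107106570 to 107289629), the coreceptor gene, also had a single peak (chr5:107107586-107107915), in the middle of the 3′ UTR from 1724 to 2053 nt past the stop codon. The fold enrichment was 9.48, so the peak counts as strong, but its log10 p of -1.69 was among the weaker ones, and 86.7% of all peaks were more significant. The same pair of values occurred in 845 peaks of the list, where 9.48 was the commonest fold enrichment. This peak had the lowest GC content of the placed peaks, at 22.4%, and held a GGACT. The strong peaks of Tgfbr2 and Tgfbr3 therefore had very different p-values. The pair of values of the strong Tgfbr2 peak occurred in no other peak, but its fold enrichment of 106 occurred in 9 peaks of the list. The input read counts behind these ratios were not examined.

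Among the SMAD genes that pass on the signal, Smad3 had the clearest peak. Smad3 (ENSMUSG00000032402, chromosome 9, minus strand, 63646767 to 63757994) encodes a SMAD that the receptor phosphorylates, and its single peak (chr9:63646767-63647246) covered the last 480 nt of its 3′ UTR of 3495 nt. The fold enrichment was 2.24 and the log10 p was -13.6. The peak began 3016 nt past the stop codon and held 8 DRACH sites, with 1 GGACT. Smad2 (ENSMUSG00000024563, chromosome 18, plus strand, 76241580 to 76310963) encodes the other receptor-activated SMAD of the TGF-β branch. It had 0 peaks although its longest coding transcript has 8089 nt, with 166 DRACH sites and a 3′ UTR of 6233 nt, longer than that of Tgfbr2. Without read counts it cannot be said whether Smad2 RNA was covered well enough in these libraries for a peak to be called, so no absence of m6A follows.

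Smad4 (ENSMUSG00000024515, chromosome 18, minus strand, 73639009 to 73703780), the shared partner of the receptor-activated SMADs, had a peak of 61 nt (chr18:73678043-73678103). Its fold enrichment was 5.69 and its log10 p was -1.63, and 200 peaks of the list had the same pair of values. The peak touched no exon of the longest coding transcript. It lay in exon 1 of the other of the 2 coding isoforms, 131 nt before the start codon, and it was the sole peak of the family with 0 DRACH sites.

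Smad7 (ENSMUSG00000025880, chromosome 18, plus strand, 75367529 to 75395935), the inhibitory SMAD, differed from the other SMAD genes in having 4 peaks spread over its whole transcript of 4278 nt. The strongest (chr18:75368936-75369235) lay over the start codon in exon 1, with 20 nt of the 5′ UTR and 280 nt of the coding sequence. Its fold enrichment was 7.86 and its log10 p was -7.74, and no other peak of the list had that fold enrichment. It was the sole placed peak of the family to hold a start codon, against 14.8% of all placed peaks. A second peak (chr18:75367679-75367918), with an enrichment of 3.41-fold (log10 p -3.24), lay in the 5′ UTR, 1037 nt upstream of the start codon.

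These 5′ peaks of Smad7 were the most GC-rich of the 17 placed peaks and had the lowest DRACH densities among them. The upstream peak had 77.9% GC and 8.33 sites per kb, and the peak over the start codon had 74.0% GC and 3.33 sites per kb. The other Smad7 peaks were weaker. A peak of 61 nt in the coding sequence of exon 4 had an enrichment of 1.37-fold (log10 p -1.38), and a peak over the last 270 nt of the 3′ UTR had 1.90 and -2.21. For Smad7 the enrichment was thus highest at the start codon, whereas for Tgfbr2 it was highest far downstream of the stop codon.

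The genes of both corepressors had peaks near the 3′ end. Ski (ENSMUSG00000029050, chromosome 4, minus strand, 155154075 to 155222592) had a peak of 240 nt (chr4:155154105-155154344) with an enrichment of 3.79-fold (log10 p -3.86), which ended 30 nt before the end of the transcript. A further Ski peak of 60 nt (chr4:155156228-155156287), 1054 nt past the stop codon, had the lowest fold enrichment of the family, 1.22, and a log10 p of -2.07. Skil (ENSMUSG00000027660, chromosome 3, plus strand, 31095058 to 31122577) had a single peak (chr3:31122098-31122577) over the last 480 nt of its 3′ UTR of 3964 nt. Its fold enrichment was 1.88 and its log10 p was -7.93. It held 10 DRACH sites and the GGACT printed above.

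Several peaks of the family lay at the transcript end, a position that was noticed after the values were seen. In Tgfb1, Tgfbr1, Smad3, Smad7 and Skil a peak reached the last annotated base, which is 5 of 17 placed peaks (29.4%, 95% Wilson interval 13.3 to 53.1), against 22.3% of all placed peaks. With Ski, 6 of the 8 genes that had a placed peak had one ending within 50 nt of the transcript end (75%, interval 40.9 to 92.9), against 43.2% of all genes with a placed peak. For both shares the value over the whole list lay inside the interval, so the position is not shown to be particular to the family. The 2 genes without such a peak were Tgfbr2 and Tgfbr3, the genes whose 3′ UTR held a strong peak. No 3′ UTR peak of the family began closer than 1054 nt to the stop codon, if the Tgfb1 peak across the stop codon is left aside. Of the 11 peaks centered in a 3′ UTR, all in genes with several coding isoforms, 8 lay on 1 coding isoform alone and 3 on more. The same count was not made over all peaks, so no share stands beside it. Some annotated coding isoforms are too short to hold such a peak. The other Smad3 isoforms, of 429, 466 and 744 nt, end before the stop codon of the longest one. Their annotated coding sequence runs to their last base, so they have no annotated 3′ UTR. The count of 8 peaks on 1 isoform therefore depends in part on such incomplete models.

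The sequence under the peaks was examined next. In 5404 nt of exonic peak sequence there were 88 DRACH sites, or 16.3 per kb (95% Poisson interval 13.1 to 20.1). The rest of the same transcripts held 18.5 per kb and all placed peaks 20.2 per kb. The density in the family was thus no higher than in the transcript outside its peaks. All 17 placed peaks held at least 1 DRACH site (against 90% of all placed peaks), 11 held a GGAC (64.7%, against 54.5%) and 6 held a GGACT (35.3%, against 26.6%). For both motifs the share over all placed peaks lay within the 95% Wilson interval, 41.3 to 82.7 for GGAC and 17.3 to 58.7 for GGACT. The placed family peaks had a median of 270 exonic nt, against 203 over all placed peaks. A longer peak has more positions where a motif can occur, and these shares were not adjusted for length. The GGACT peaks belonged to Tgfb1 (5′ UTR), Tgfbr2 (distal 3′ UTR), Tgfbr3, Smad3, Smad7 (coding sequence) and Skil.

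Among the 88 sites AAACA was the commonest spelling with 10, followed by AGACA with 9 and AGACT with 8. GGACT and GGACA, which are widely reported as favored m6A contexts, made up 6 and 7 sites (6.82% and 7.95%), against 5.42% and 6.75% of the sites in all placed peaks. GGAC, counted without regard to the next base, occurred 3.52 times per kb in the peaks and 3.42 times per kb in the rest of the transcripts. The density of a single peak rests on few sites, so by construction it varied more between peaks than between these pooled sets. Among the 17 placed peaks the density was lowest in the Smad7 peak over the start codon, with 1 site in 300 nt. The highest density was that of the short Ski peak, with 2 sites in 60 nt (33.3 per kb).

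**Figure D3:**
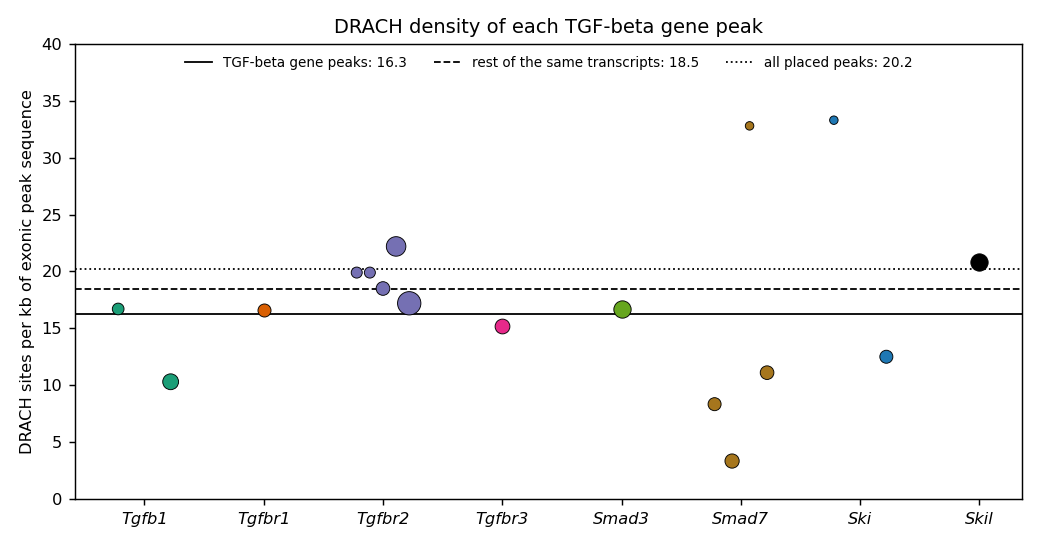
DRACH sites per kb of exonic sequence (y axis) in each of the 17 placed peaks, by gene (x axis), with the area of a point growing with the exonic length of the peak. The lines give the density over all family peaks (16.3), over the rest of the same transcripts (18.5) and over all placed peaks (20.2), and the long Tgfbr2 peaks lie near them while the 2 short peaks of Smad7 and Ski lie above 30.

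The 10 genes were set beside 72 other genes of the pathway, grouped by role. Of these, 52 had a peak (72.2%, 95% Wilson interval 61 to 81.2), against 46.3% of all protein-coding genes. These genes too were picked for a known role, and their expression in these cells was not measured. The higher share thus describes this list of genes only. The 52 genes carried 106 peaks, of which 30 were strong (28.3%), a lower share than the 34.6% of all peaks. The median fold enrichment was 2.33, beside 2.66 over all peaks. At least 1 peak was found in 9 of 10 SMAD cofactor genes, 12 of 16 genes for regulators of receptors and SMADs, 11 of 15 genes for other ligands and their activation, 5 of 7 genes of the SMAD-independent branch, 7 of 10 target genes, 6 of 10 genes for other receptors of the superfamily and 2 of 4 other SMAD genes. The 2 were Smad1, a SMAD of the BMP branch (fold enrichment 1.90, log10 p -2.58), and Smad6, the other inhibitory SMAD (6.64 and -2.0). Both had p-values above 0.001, and Smad5 and Smad9 had no peak, so Smad3 and Smad7 were the SMAD genes with a peak at a p-value under 0.001.

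The highest fold enrichments among these genes were 83.4 at Ltbp4, which encodes a protein that binds latent TGF-β, 70.2 at Tgif2, a SMAD corepressor gene, 56.9 at Nedd4l, 55.0 at Acvr2b and 47.4 at Smurf2. Nedd4l and Smurf2 encode ubiquitin ligases that act on SMADs and receptors, and Acvr2b encodes an activin receptor. The value at Tgfbr2 exceeded all of these. The log10 p-values were -18.9 at Ltbp4, -16.0 at Tgif2, -12.6 at Nedd4l, -12.1 at Acvr2b and -20.4 at Smurf2. The same pair of fold enrichment and p-value occurred in 13 peaks of the list for Ltbp4, 26 for Nedd4l and 22 for Acvr2b. For Tgif2 and Smurf2 the pair occurred in no other peak. Several of these peaks had little coding-isoform sequence under them. The Smurf2 peak held 17 exonic nt of coding isoforms in a span of 1941 nt, that of Nedd4l 60 in 4435 and that of Tgif2 105 in 419, whereas that of Acvr2b was exonic over all its 1050 nt, as was that of Tgfbr2 over its 930.

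The most significant peaks among the other genes were found at lower fold enrichments. They were those of Id2, a target gene that encodes a transcriptional regulator needed by NK cells (log10 p -142, fold enrichment 2.22, in the coding sequence), Tgfbi (-45.3 and 1.70), Mapk14, which encodes the kinase p38α (-43.0 and 2.20), Tab2, an adaptor gene of the TAK1 kinase (-36.1 and 1.72), and Tgif1, a SMAD corepressor gene (-31.1 and 2.04). With a log10 p of -54.7 the Tgfb1 peak would stand second in this order, after Id2.

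**Figure D4:**
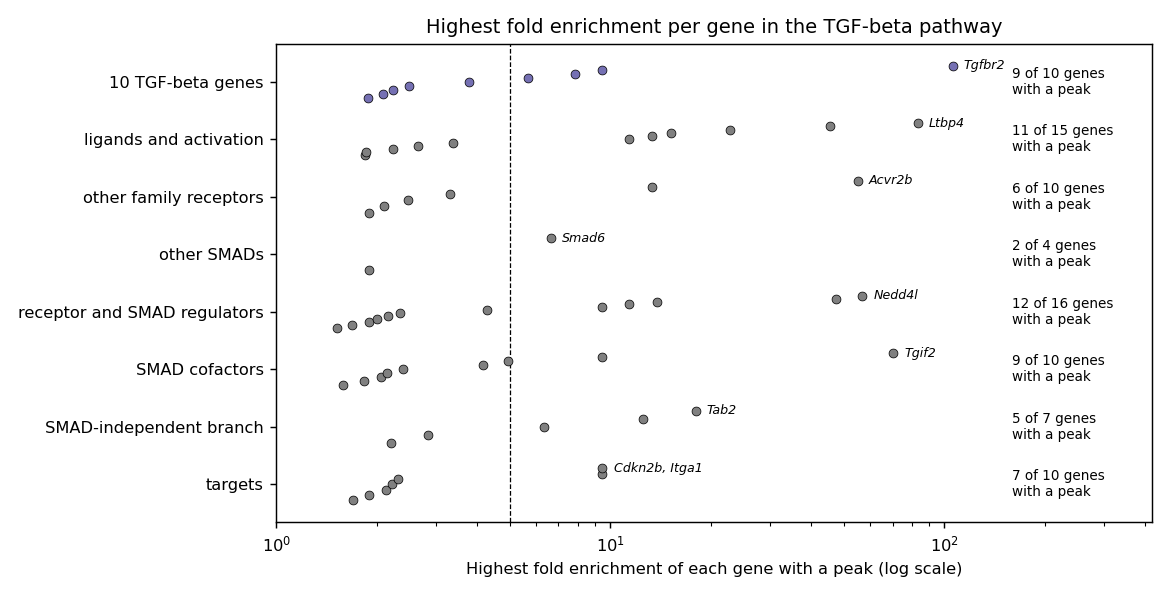
Highest fold enrichment (x axis, log scale) of each gene with a peak, for the 10 TGF-beta genes (purple) and 7 groups of other pathway genes (gray), with the number of genes that had a peak at the right and the gene with the highest value named. The dashed line marks a fold enrichment of 5, and the point of Tgfbr2 at 106 lies farthest right.

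The NK cells had been sorted by flow cytometry, which removes most other cells, and a peak does not tell from which cell its RNA came. All 8 NK cell markers examined (Ncr1, Klrb1c, Klrk1, Itga2, Eomes, Tbx21, Gzmb and Prf1) had a peak. So did all 3 myeloid markers (Lyz2, Csf1r and Itgax) and 2 of 4 T cell markers. The NK markers had enrichments from 1.36 to 2.35 and the myeloid markers from 1.64 to 1.90, with a log10 p of -322 at Csf1r. Among T cell markers Cd3e (30.3) and Cd3g (31.6) had a peak and Cd4 and Cd8a had none, and among B cell markers Cd79a (7.59) had one and Ms4a1 had none. Itgax is also found on NK cells, and myeloid cells also express Tgfb1, Tgfbr1, Tgfbr2 and Tgfbi. Whether other cells contributed to the TGF-β peaks was not tested.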

How the data were processed

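MeRIP-seq was carried out by the authors on sorted splenic NK cells. According to the methods of the study, reads were trimmed with Trimmomatic and Cutadapt, mapped with HISAT2, and peaks were called with exomePeak and annotated with ChIPseeker. The submitters' processing notes name GRCm38. The deposited list holds 1 fold enrichment, a ratio made by the authors, and 1 score, the unadjusted log10 of the peak-calling p-value, for each peak, with -1.30 as the weakest. How the replicates were combined, and the depth, is not given in the sources used here, so the precision of a value is unknown.

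From the 20751 rows, 24 exact repeats were removed. The build was checked through GENCODE M21 (GRCm38), which held 12332 of the 12351 gene identifiers. Peaks were placed by the center of their exonic part on the longest coding transcript (15715 peaks). DRACH was counted on the strand of the gene within this exonic part, overlapping matches included. The code was tested on 2000 simulated transcripts. Python 3.11.15, pandas 2.3.3 and scipy 1.17.1 were used. No test between genes was run, since peaks are not replicates.

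The members, the pathway list and the measures were chosen with earlier results of these data known, and the position at the transcript end was added after the values were seen. Genes named are all members and, of the other pathway genes, the 5 with the highest fold enrichment and the 5 with the most significant peak, with those lacking a peak to be listed where fewer than 20. Smad1, Smad5, Smad6 and Smad9, and the genes under the other observations, were named after their values were seen. The result of 1 B cell marker is not reported here. Alternatives changed the thresholds, the choice of transcript, the point that places a peak and the motif.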

Additional observations from a re-analysis of the deposited data

How the results depend on the processing

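Of 34 alternative values for 9 results, 26 stayed within 1.5 times a count or within the 95% interval of a share, median or density. The other 8 moved outside it. Whether a direction reversed was not assessed. The thresholds moved the counts most. At 2-fold or more 9 of the 18 peaks were left, and at 5-fold or more 4 of the 9 genes. Of the 4 strong peaks, 1 reached 10-fold and 2 a p-value under 0.001. The share of other pathway genes with a peak was 56.9% at 2-fold or more, 48.6% for a p-value under 0.001 and 29.2% at 5-fold or more. These follow from the stricter thresholds, as fewer peaks remain. The share of all protein-coding genes was not computed at these thresholds. The 46.3% of protein-coding genes with any peak is therefore no comparator for these pathway shares. GGAC, a narrower motif, gave 3.52 sites per kb in place of 16.3. The median fold enrichment was 3.79 among peaks of 2-fold or more, which is higher by construction. The share of centers in the 3′ UTR ranged from 61.5% to 73.3% over its alternatives, and the number of genes with a peak at the transcript end ranged from 4 to 6 in alternatives chosen after seeing the data.

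No paired analysis was possible because the list has no value per library, although the labels number them 1 and 2 among both IP and input. Leaving out a replicate was not run for that reason, and depth is unknown.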

Other observations

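Some peaks of other pathway genes did not lie on a coding isoform of their gene. Ppm1a, which encodes a phosphatase reported to act on SMAD proteins, had 12 peaks, and 5 of them overlapped 0 nt of a coding isoform. The strongest Ppm1a peak, with an enrichment of 13.8-fold (log10 p -10.5), lay in the 3′ UTR. The highest fold enrichments of Itga1 (9.48), an integrin gene, and Usp4 (11.4), a deubiquitinase gene, also came from peaks with 0 nt on a coding isoform. Their log10 p-values were weak, at -1.69 for Itga1 and -2.09 for Usp4. The same pairs of values occurred in 845 and 532 peaks of the list. The peak assigned to Itgae, which encodes the integrin chain CD103 and is a known TGF-β target, overlapped 0 nt of any Itgae exon (fold enrichment 2.32, log10 p -2.88).

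In 2 cases the exon label of a peak named another gene. A peak assigned to Ncor1 (fold enrichment 4.17) carried the exon label of Ttc19, and a peak assigned to Tgif2 (4.43) carried that of 5430405H02Rik. By a different measure, overlap with annotated exons, 0 of the 18 peaks of the ligand, receptor, SMAD and corepressor genes overlapped an exon of another gene. The same overlap is not given for the other pathway genes or the whole list, so no contrast can be drawn.

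Rhoa, a small GTPase gene of the SMAD-independent branch, had neighboring 3′ UTR peaks of very different strength, as Tgfbr2 did. Their fold enrichments were 1.29 (log10 p -25.6) and 12.5 (log10 p -21.2).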
